A study of Mus musculus with 6 samples.

Results

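Interferon-stimulated genes are the genes that a cell switches on when an interferon binds its receptor. The 40 genes described here were taken by their listed symbols from the gene table of the libraries, and the list was drawn up with earlier results of these data known. All 40 were found, each in 1 row, among 32285 genes. They were followed in 6 single-cell RNA libraries of jejunal epithelium, in which each captured RNA molecule is counted once by its unique molecular identifier (UMI). The libraries came from 3 groups of male wild-type C57BL/6J mice about 30 weeks old. The mice had eaten their diet for 16 weeks before surgery and returned to it soon afterwards. Tissue was taken 5 weeks after surgery, following an overnight fast. LFD sham mice ate a low-fat diet and had a sham operation, HFD sham mice ate a high-fat diet and had the same sham operation, and HFD VSG mice ate the high-fat diet and had vertical sleeve gastrectomy (VSG), which narrows the stomach to a tube. Every group therefore went through an operation, and diet and VSG are never separated from the pool of mice: cells were pooled from 3 mice in each sham group and from 2 in HFD VSG, and each pool gave 1 crypt-labelled and 1 villus-labelled library. With 1 library per group and compartment no test was possible, and every interval below is a 95% interval that covers counting error only.

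Type I interferons (alpha and beta) and type III interferons (lambda) act through separate receptors but send the same complex into the nucleus, which includes STAT2 and IRF9 and binds a DNA motif called the interferon-stimulated response element (ISRE). Interferon gamma, made mainly by lymphocytes, instead acts through another motif, the gamma-activated sequence (GAS), and is the stronger inducer of the GTPases that attack vacuoles holding microbes. Intestinal epithelium responds to interferon lambda in particular, and many of the 40 genes are expressed at a low resting level in the absence of infection.

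The promoter sequences shown here are those of Gbp7 and Igtp, which had the lowest log2 ratios of HFD sham to LFD sham in the crypt-labelled libraries, of the neighbours Rsad2 and Cmpk2 and the neighbours Oasl2 and Oasl1, whose second genes differed least there, and of Ifit1 and Isg15 as widely used examples of such genes. RefSeq windows (GRCm38.p6) running from 250 bases before to 50 bases after the start were found for 33 of the 40 genes. The 150 bases just before the start are printed 5′ to 3′ along the strand of the gene, with matches on either strand to the ISRE core GAAANNGAAA or to the GAS motif TTCNNNGAA in capitals. Ifit1 (chr19:34640739-34640888, plus strand), Isg15 (chr4:156200819-156200968, minus strand), Rsad2 (chr12:26456453-26456602, minus strand), Cmpk2 (chr12:26469065-26469214, plus strand), Oasl2 (chr5:114896784-114896933, plus strand), Oasl1 (chr5:114923090-114923239, plus strand), Igtp (chr11:58199406-58199555, plus strand) and Gbp7 (chr3:142530186-142530335, plus strand) read:
Ifit1: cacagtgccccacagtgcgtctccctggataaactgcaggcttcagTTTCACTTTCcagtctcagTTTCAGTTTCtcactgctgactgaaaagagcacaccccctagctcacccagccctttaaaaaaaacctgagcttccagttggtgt
Isg15: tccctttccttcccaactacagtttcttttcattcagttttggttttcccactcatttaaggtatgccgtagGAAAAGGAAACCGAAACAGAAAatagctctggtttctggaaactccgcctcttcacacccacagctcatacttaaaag
Rsad2: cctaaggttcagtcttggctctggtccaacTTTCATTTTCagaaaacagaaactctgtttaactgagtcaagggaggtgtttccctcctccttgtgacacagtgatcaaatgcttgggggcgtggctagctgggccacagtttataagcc
Cmpk2: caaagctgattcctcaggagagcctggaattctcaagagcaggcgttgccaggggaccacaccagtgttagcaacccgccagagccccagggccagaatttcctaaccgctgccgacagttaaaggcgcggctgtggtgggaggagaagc
Oasl2: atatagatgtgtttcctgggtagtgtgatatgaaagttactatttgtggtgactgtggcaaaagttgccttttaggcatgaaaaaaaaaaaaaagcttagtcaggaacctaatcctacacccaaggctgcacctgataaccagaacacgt
Oasl1: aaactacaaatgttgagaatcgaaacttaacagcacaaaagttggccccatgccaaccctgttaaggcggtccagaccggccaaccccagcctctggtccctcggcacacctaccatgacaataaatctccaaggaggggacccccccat
Igtp: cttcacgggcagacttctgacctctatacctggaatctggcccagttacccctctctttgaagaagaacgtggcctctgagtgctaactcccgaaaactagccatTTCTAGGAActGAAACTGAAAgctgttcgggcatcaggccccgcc
Gbp7: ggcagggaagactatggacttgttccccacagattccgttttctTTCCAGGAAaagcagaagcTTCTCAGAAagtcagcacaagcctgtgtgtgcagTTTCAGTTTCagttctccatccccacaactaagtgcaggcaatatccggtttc

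The Ifit1 window held 2 ISRE cores, that of Isg15 3 overlapping ones, and that of Rsad2 1. Igtp held a GAS match directly beside an ISRE core, and Gbp7 held 2 GAS matches and 1 ISRE core. No match lay in these stretches of Cmpk2, Oasl2 and Oasl1, which says only that these letters are not in this window. Over the full windows, an ISRE core was found in 21 of the 33 genes (63.6%), against 3.99% of the 27025 genes with a window. The core followed by CT was in 12 of the 33 genes against 0.303% of all genes, and GAS in 8 of the 33 against 9.55%. Of the 33, 6 carried an ISRE core together with GAS, and 10 carried neither.

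Cells were grouped into classes by clusters built without the 40 genes and without other interferon pathway genes, and named from marker lists. Of 59457 barcodes called as cells (7765 to 12012 per library, with 60522766 to 155522445 UMIs), 24655 passed the filters, and 2 to 13 barcodes were shared by any 2 libraries. The villus-labelled libraries of LFD sham, HFD sham and HFD VSG held 232, 108 and 403 stem-like cells and the crypt-labelled ones 48, 51 and 139, and Paneth-like and cycling cells were also more numerous in the villus-labelled library of each group and enterocyte-like cells fewer, so crypt and villus are used below only as the names of libraries. Immune-like cells numbered 9 in the HFD sham villus-labelled library and 69 to 588 in the other 5. Depth differed as well: the median enterocyte-like cell held 8792 to 32737.5 UMIs, the highest in the HFD VSG villus-labelled library.

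Among the epithelial classes, all members together were highest in enterocyte-like and tuft-like cells of the crypt-labelled libraries. Summed over the 40 genes and scaled to the total UMIs of the same cells (counts per 1000000, CPM), enterocyte-like cells of the crypt-labelled libraries held 1062.8 CPM in LFD sham, 650.7 in HFD sham and 877.6 in HFD VSG. Tuft-like cells, chemosensory cells of the epithelium, were close to these levels with 1004.3, 761.9 and 861.4 CPM, although the HFD sham value rests on 13 cells. Goblet-like cells held 504.3 to 705 CPM in the same 3 libraries, stem-like cells 245.3 to 336.2, cycling progenitor-like cells 289.3 to 319.4, and Paneth-like cells 99.8 to 133.3. Within the epithelium the summed level thus ran from enterocyte-like and tuft-like cells, whose intervals overlapped in all 3 libraries, down to Paneth-like cells. In the villus-labelled libraries enterocyte-like cells were likewise highest, with 528.2 to 715.4 CPM, and Paneth-like cells lowest, with 62.3 to 95.1 CPM. Immune-like cells, named from T lymphocyte and general leukocyte markers, held 1224.4 CPM in LFD sham, 927.1 in HFD sham and 1199.9 in HFD VSG crypt-labelled libraries.

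**Figure D1:**
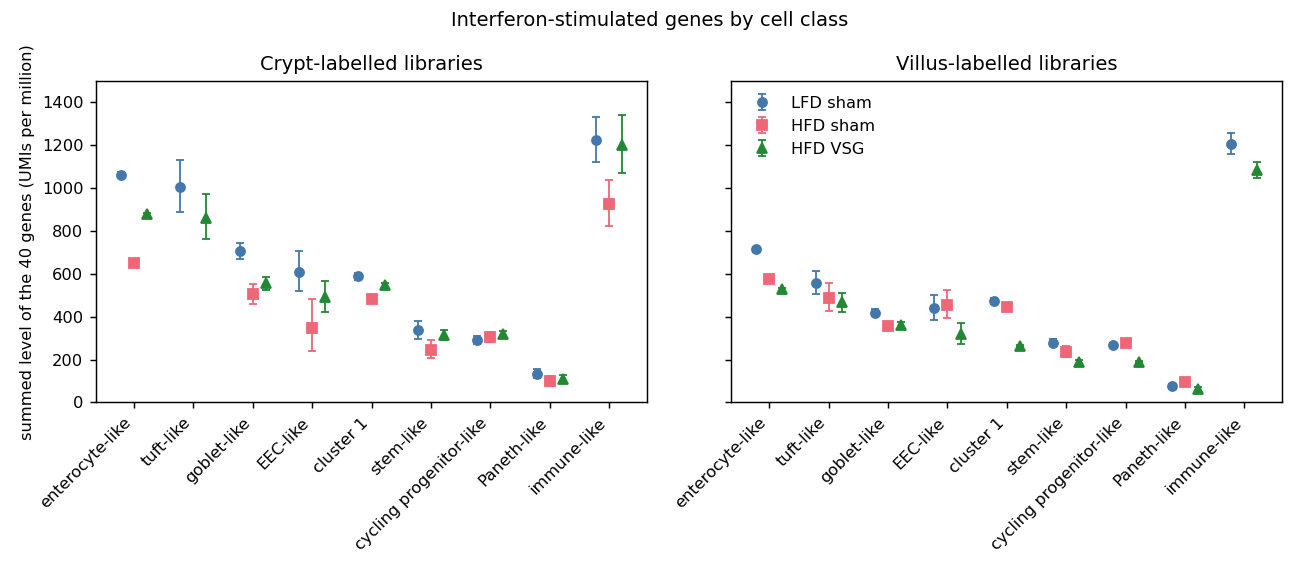
Summed level of the 40 genes in CPM (vertical axis) by cell class, for the 3 crypt-labelled and the 3 villus-labelled libraries; points are single libraries and bars the 95% counting interval. In enterocyte-like cells LFD sham is highest in both compartments, and Paneth-like cells are lowest of the classes in every library.

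The order of LFD sham, then HFD VSG, then HFD sham held for the crypt-labelled sum in enterocyte-like, tuft-like, goblet-like, enteroendocrine-like, stem-like and Paneth-like cells and in cluster 1, with wide intervals in the smaller classes. Immune-like cells, which are not epithelial, had the same order, although the intervals of LFD sham and HFD VSG overlapped. The order did not hold in cycling progenitor-like cells, which held 289.3 CPM in LFD sham, 304.9 in HFD sham and 319.4 in HFD VSG. In the villus-labelled libraries the enterocyte-like sum instead ran from 715.4 CPM in LFD sham to 574.4 in HFD sham and 528.2 in HFD VSG. The plot of summed level by class shows both orders.

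Members differed in which cells held them. CPM from 3′ tags count molecules regardless of gene length, so levels of different genes can be set side by side on this scale. Parp14, a mono-ADP-ribosyltransferase, was the most abundant member in enterocyte-like cells of 5 of the 6 libraries, with 117 CPM in LFD sham, 88.4 in HFD sham and 107 in HFD VSG crypt-labelled libraries and 85.2, 74.4 and 41.7 in the villus-labelled ones. Ifi35 was higher in the HFD VSG villus-labelled library, at 82.3 CPM. In stem-like cells Parp14 stood at 6.96 to 28.1 CPM over the 6 libraries. Eif2ak2, the kinase PKR that stops translation when it meets double-stranded RNA, was instead about level, with 37.5 to 53.0 CPM in enterocyte-like and 35.2 to 61.7 CPM in stem-like cells. Ifit1, which binds viral RNA lacking host cap methylation, showed the steepest contrast, with 8.21 to 41.6 CPM in enterocyte-like cells and 0 to 1.36 CPM in stem-like cells. Gbp7, a guanylate-binding protein of the cell-autonomous defence against microbes in vacuoles, and Ifi47, a member of the immunity-related GTPases, were higher in immune-like cells: Gbp7 stood there at 93.0 to 122 CPM in the 5 libraries with more than 9 such cells, against 0.292 to 8.69 CPM in enterocyte-like cells, and Ifi47 at 57.8 to 139 against 4.39 to 9.20 CPM.

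**Figure D2:**
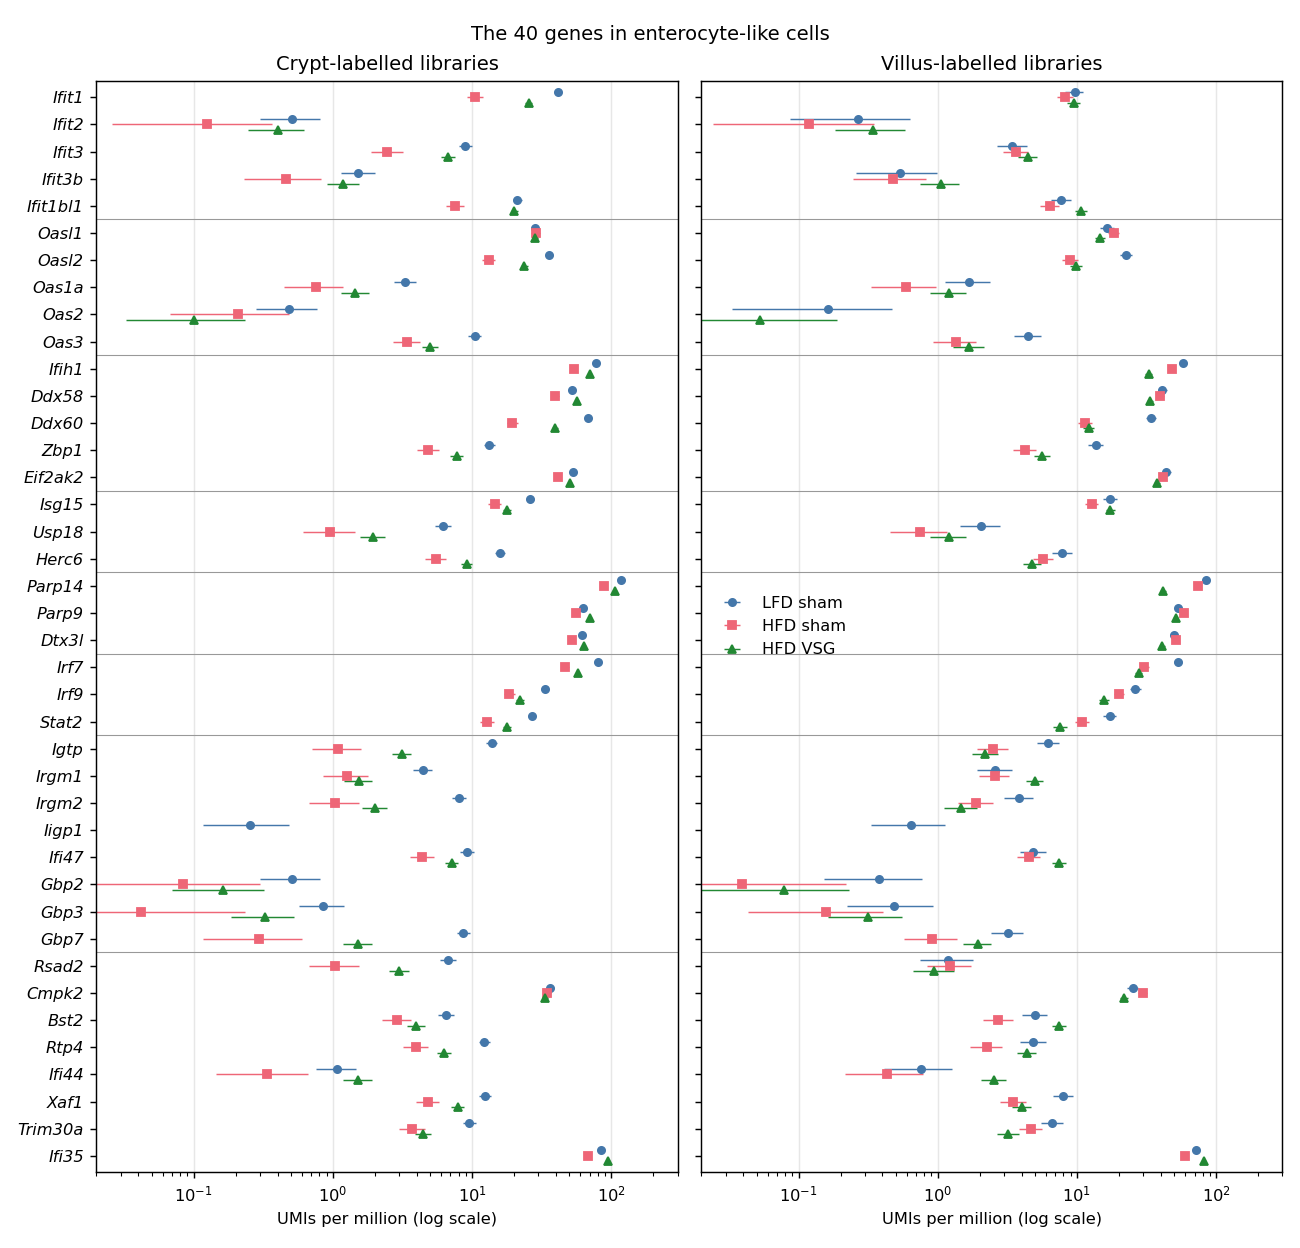
Level of each of the 40 genes in enterocyte-like cells, in CPM on a log axis, grouped by role, for crypt-labelled (left) and villus-labelled (right) libraries; bars are 95% counting intervals and genes with no UMI in a library are not drawn; a few bars run past the left edge. In the crypt-labelled libraries HFD sham is the lowest point for 33 of the 35 members that reached the count minimum. The share of all genes with HFD sham lowest was not computed, so this count only describes the plot.

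For comparisons between groups a member had to average 20 UMIs or more over the crypt-labelled or the villus-labelled libraries in enterocyte-like cells, and 35 of the 40 were used in each compartment. Ifit2, Oas2, Iigp1, Gbp2 and Gbp3 did not reach it, with 0 to 30 UMIs per crypt-labelled and 0 to 13 per villus-labelled library. Differences are given as log2 ratios of CPM, and a member is counted as higher or lower when its log2 ratio was beyond 0.5 in size. HFD sham is the denominator of one comparison and the numerator of another, and LFD sham and HFD VSG are also each used 2 times, so the 3 comparisons of a compartment share libraries and do not support each other. Fewer cells of high level and less RNA per cell cannot be told apart in these sums. The spread over cells is given further on as a description.

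The diets were compared by HFD sham against LFD sham. In the crypt-labelled libraries 27 of the 35 members were lower in HFD sham and 0 higher, against 9.83% of 10951 genes lower and 6.75% higher. At a size of 1 in place of 0.5, 23 members were lower, against 2.47% of genes. The median log2 ratio of the members was -1.45 and that of all genes -0.02. Of the members 34 lay below 0, and the share of all genes below 0 was not computed. With only cells of at most 10% mitochondrial UMIs, 22 members could be used and their median was -0.59, beside 0.08 for all genes. The sum of the 40 genes differed by a log2 ratio of -0.71 (-0.73 to -0.68). By group, all 5 of the GTPases used, all 4 IFIT genes, all 3 genes of the ISG15 system and all 3 transcription factors were lower.

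The largest differences were among the GTPases. Gbp7 stood at 8.69 CPM (307 UMIs) in LFD sham, 0.292 (7 UMIs) in HFD sham and 1.51 (75 UMIs) in HFD VSG crypt-labelled enterocyte-like cells. Igtp, which encodes IRGM3 and acts on vacuole membranes, stood at 13.8 CPM (489 UMIs), 1.09 (26 UMIs) and 3.12 (155 UMIs), and Irgm2, a regulator of the same GTPase family, at 8.09, 1.04 and 2.00. HFD VSG lay between LFD sham and HFD sham for all 3 genes. The 3 were named for having the lowest log2 ratios of HFD sham to LFD sham. Their lower level in HFD sham, with intervals that did not overlap those of LFD sham, therefore follows largely from that choice. The log2 ratios of HFD sham to LFD sham were -4.89 (-6.22 to -3.83) for Gbp7, -3.67 (-4.30 to -3.10) for Igtp and -2.95 (-3.61 to -2.36) for Irgm2. Droplets with fewer than 100 UMIs, which hold mostly free RNA, moved in the same order: in LFD sham, HFD sham and HFD VSG they held 3.505, 0 and 1.74 CPM of Gbp7 (7, 0 and 8 UMIs), 12.5, 1.09 and 2.18 CPM of Igtp (25, 2 and 10 UMIs) and 6.01, 0.545 and 0.871 CPM of Irgm2 (12, 1 and 4 UMIs). For single genes the part of free RNA in these differences was not tested. The gene models of Igtp and Irgm2 overlap by 7974 bases on the same strand of chromosome 11, so the split of reads between them is uncertain. Immune-like cells held more Gbp7 than enterocyte-like cells, and immune markers summed to 5.63 CPM in LFD sham and 5.60 CPM in HFD sham crypt-labelled enterocyte-like cells.

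At the other end of the list stood 3 genes that differed little. Oasl1, an OAS-like protein that in mice restrains translation of Irf7, was at 28.2 CPM in LFD sham, 28.8 in HFD sham and 28.4 in HFD VSG, with a log2 ratio of 0.03 (-0.11 to 0.17) between the first 2. Cmpk2, a mitochondrial nucleotide kinase, was at 36.6, 34.6 and 33.7 CPM, a log2 ratio of -0.08 (-0.21 to 0.05). Parp9, the partner of the ubiquitin ligase Dtx3l, was at 62.4, 56.1 and 70.5 CPM, a log2 ratio of -0.15 (-0.25 to -0.06). None of the 3 ADP-ribosylation and ubiquitin genes (Parp14, Parp9 and Dtx3l) passed the size of 0.5, although their intervals lay below 0, and Dtx3l and Parp9 overlap by 682 bases on opposite strands.

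Oasl1 and Cmpk2 each have a neighbour in the list that differed. Rsad2, which encodes viperin, lies 12752 bases from Cmpk2 on chromosome 12, and its level was 6.73 CPM in LFD sham, 1.04 in HFD sham and 2.98 in HFD VSG, a log2 ratio of -2.69 (-3.35 to -2.09) for HFD sham to LFD sham. Oasl2 lies 11006 bases from Oasl1 on chromosome 5 and was at 36.0, 13.2 and 23.7 CPM, a log2 ratio of -1.45 (-1.63 to -1.27). Within each pair, 1 gene was lower in HFD sham and the other was not beyond 0.5 in size; the promoter stretches of all 4 are printed above. Of the 30 members used with a promoter window, the 19 with an ISRE core had a median log2 ratio of -1.73 (range -4.89 to -0.36) and the 11 without it -0.85 (range -1.69 to 0.03), given as a description of these genes. The villus-labelled medians of the same genes were -0.43 with and -0.39 without the core. By GAS, the crypt-labelled medians were -2.14 over the 7 members with a match and -1.37 over the 23 without, and the villus-labelled ones -1.01 and -0.28.

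The other families lay between. Ifit1 stood at 41.6 CPM (1472 UMIs) in LFD sham, 10.5 (252 UMIs) in HFD sham and 25.5 (1266 UMIs) in HFD VSG crypt-labelled enterocyte-like cells, a log2 ratio of -1.98 (-2.18 to -1.79) for diet. Over the 4 IFIT genes used, the log2 ratios ran from -1.98 to -1.49, the narrowest range of the families with more than 3 members used, though these are related genes whose sequences were not compared here, so reads may be split between them. Usp18, the protease that removes ISG15 and damps the type I receptor, was at 6.17, 0.961 and 1.94 CPM, with a log2 ratio of -2.68 (-3.37 to -2.06), while Isg15 itself was at 26.2, 14.6 and 17.9 CPM and -0.84 (-1.03 to -0.67). Irf7, the factor that amplifies type I interferon production, was at 80.7, 46.8 and 58.0 CPM, and Irf9, the DNA-binding part of the ISRE complex, at 33.4, 18.5 and 22.1 CPM. Among the sensors, Ddx60 differed most, with 68.0, 19.4 and 39.4 CPM and a log2 ratio of -1.81 (-1.95 to -1.66), whereas Ifih1, the RNA sensor MDA5, was at 78.1, 53.7 and 70.7 CPM and -0.54 (-0.64 to -0.44). Every one of these was lowest in HFD sham.

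**Figure D3:**
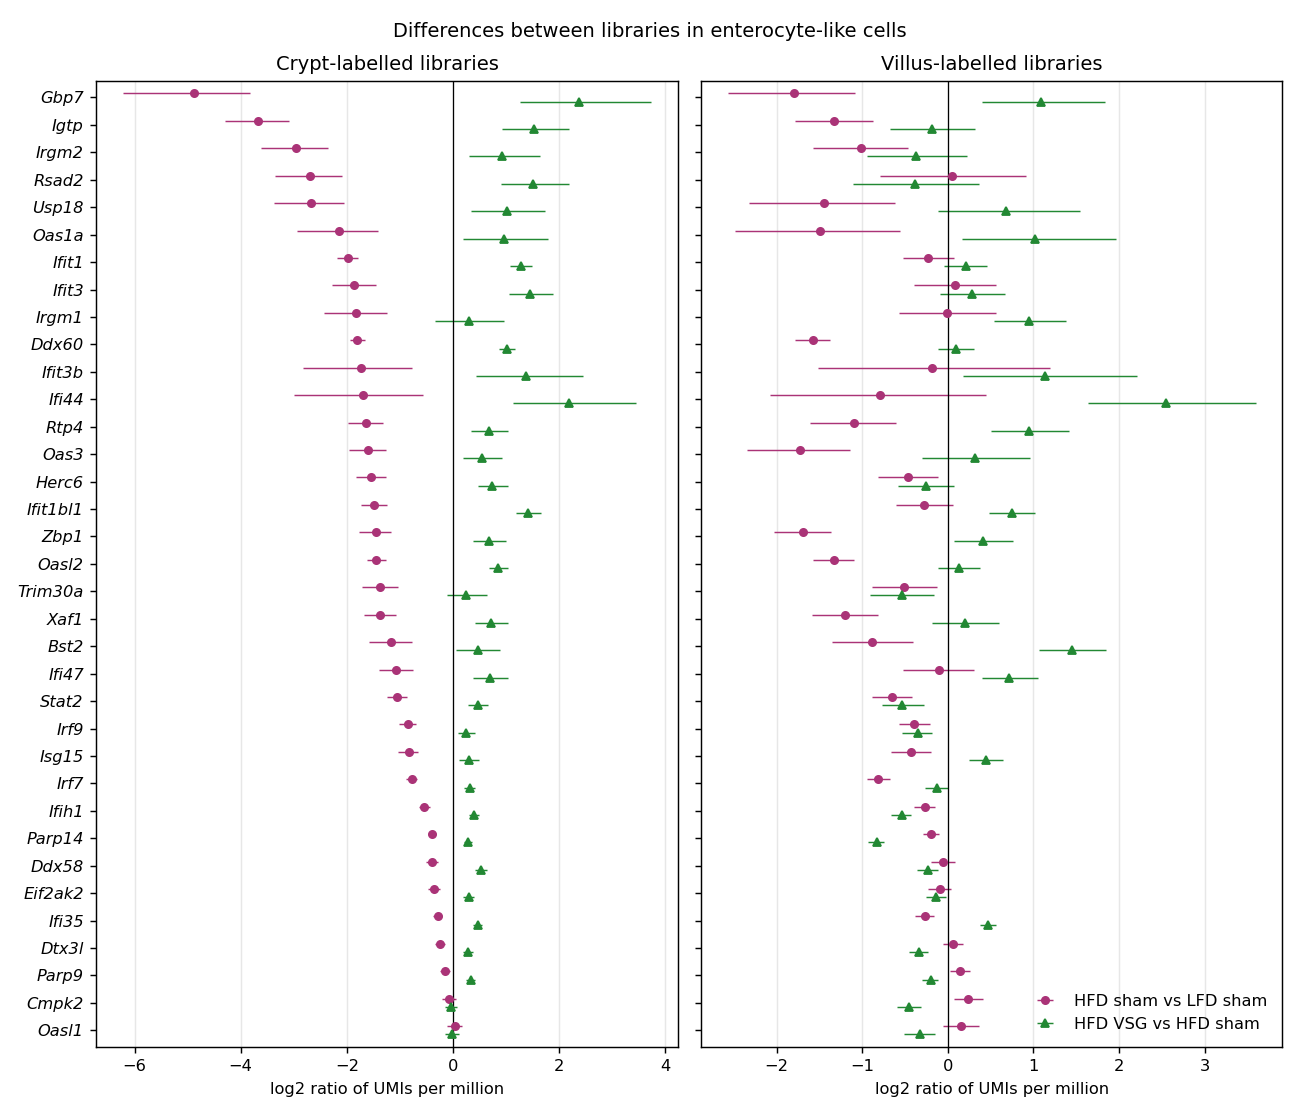
Log2 ratio of CPM in enterocyte-like cells for each member used, for HFD sham to LFD sham and HFD VSG to HFD sham. Crypt-labelled libraries are on the left and villus-labelled ones on the right. Bars are 95% counting intervals, the black line marks 0 and the grey lines are the grid of the axis. In the crypt-labelled libraries the diet ratios reach down to -4.89 and the VSG ratios up to 2.37, and Oasl1 and Cmpk2 lie near 0 in both.

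For the villus-labelled libraries, 16 of the 35 members were lower in HFD sham than in LFD sham and 0 higher, against 12.3% of 11025 genes lower and 7.38% higher. The members had a median log2 ratio of -0.43 and all genes of 0.01, and the sum differed by -0.32. The lowest were Gbp7, at 3.17 CPM in LFD sham and 0.908 in HFD sham (log2 ratio -1.80, -2.57 to -1.09), Oas3, at 4.46 and 1.34 CPM (-1.73, -2.35 to -1.14), and Zbp1, a sensor of Z-form nucleic acids, at 13.6 and 4.23 CPM (-1.69, -2.03 to -1.36). The highest were Cmpk2 (0.24), Oasl1 (0.15) and Parp9 (0.14), which also stood highest in the crypt-labelled comparison. None of the 4 IFIT genes used passed 0.5: Ifit1 was at 9.62 CPM in LFD sham and 8.21 in HFD sham, with a log2 ratio of -0.23 (-0.52 to 0.07). The summed level of the IFIT family was 73.9 CPM in the LFD sham and 54.0 CPM in the HFD VSG crypt-labelled library, and 18.8 to 26.1 CPM in the remaining 4. B and plasma cell markers summed to 49.3 CPM and immune markers to 104 CPM in the LFD sham villus-labelled enterocyte-like cells, against 0.908 and 0.197 CPM in HFD sham, where 9 of the 12 immune markers were at 0. Restricted to the 1110 of 1622 LFD sham and 1901 of 1928 HFD sham cells with no UMI of these markers, the median log2 ratio of the members was -0.38.

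VSG was compared with the sham operation on the high-fat diet. Of the 35 members used in the crypt-labelled libraries, 20 were higher in HFD VSG and 0 lower, against 10.5% of 10951 genes higher and 2.93% lower. At a size of 1, 10 members were higher, against 2.33% of genes. The median log2 ratio of the members was 0.68 and that of all genes 0.15, and the sum differed by 0.43 (0.41 to 0.46). Of the members 33 lay above 0, but the share of all genes above 0 was not computed, and their median was also above 0. In cells of at most 10% mitochondrial UMIs the median over 22 members was 0.10, beside 0.15 for all genes. Gbp7 had the highest log2 ratio, 2.37 (1.26 to 3.73), although its 1.51 CPM in HFD VSG was below the 1.74 CPM of the droplets with fewer than 100 UMIs, followed by Ifi44, at 0.334 CPM in HFD sham and 1.51 in HFD VSG (2.18, 1.13 to 3.44), and Igtp (1.52, 0.92 to 2.18). The 4 IFIT genes used were higher by 1.28 to 1.45. The lowest were Cmpk2 (-0.04, -0.16 to 0.08), Oasl1 (-0.02, -0.15 to 0.11) and, with 0.25 each, Irf9 (0.09 to 0.42) and Trim30a (-0.11 to 0.63), and no transcription factor or ADP-ribosylation gene passed 0.5.

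The libraries differed in more than these genes. The study states a higher free RNA fraction for both HFD sham libraries than for any other library. Estimated from immune-like cells, it was 31.5% in LFD sham, 34.2% in HFD sham and 29.4% in HFD VSG crypt-labelled libraries. Medians with free RNA subtracted are given at the end. Genes listed as markers of damaged droplets (Gm42418, Gm26917, Lars2 and AY036118) summed to 89655 CPM in LFD sham, 76374 in HFD sham and 15837 in HFD VSG crypt-labelled enterocyte-like cells. Whether these droplets were damaged was not tested. With totals that left out these 4 genes and all mitochondrial genes, the median log2 ratio of the members was -1.49 for HFD sham to LFD sham and 0.58 for HFD VSG to HFD sham, close to the values above. The difference between HFD VSG and HFD sham was smaller in cells with few mitochondrial UMIs. In the 11.6% of LFD sham, 16.5% of HFD sham and 8.51% of HFD VSG crypt-labelled enterocyte-like cells with at most 10% mitochondrial UMIs, the 40 genes summed to 914.9, 641.0 and 670.4 CPM. In the remaining cells they summed to 1079.1, 652.7 and 895.3 CPM. HFD VSG was therefore well above HFD sham only in the cells with more than 10% mitochondrial UMIs, while LFD sham was above HFD sham in both.

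In every enterocyte-like cluster the crypt-labelled sum was lowest in HFD sham. Cluster 4, led by villus-tip genes, held 1287.5 CPM in LFD sham, 874.6 in HFD sham and 1108.5 in HFD VSG, and cluster 0 held 1180.3, 678.9 and 877.4. Cluster 3 was the only one in which HFD VSG was highest, with 895.2, 579.8 and 1007.3 CPM. Clusters 2 and 8 had the order LFD sham, HFD VSG, HFD sham, with 959.6, 803.6 and 571.9 CPM and 850.7, 810.7 and 659.3 CPM.

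In the villus-labelled libraries 10 of the 35 members were higher in HFD VSG than in HFD sham and 4 lower, against 24.1% of 11025 genes higher and 15.3% lower, shares near those of the members. The members had a median log2 ratio of 0.13 and all genes of 0.06, while the sum differed by -0.12 (-0.15 to -0.09). Abundant members such as Parp14 were lower and scarce ones such as Bst2 higher, but this did not hold throughout. Ifi35, the member with most UMIs over epithelial cells, was detected in 20.5% of HFD VSG and 14.9% of HFD sham cells thinned to 3000 UMIs. The scarce Trim30a was lower. Sums by mitochondrial share are given further on. Ifi44 was at 0.753 CPM in LFD sham, 0.434 in HFD sham and 2.54 in HFD VSG (log2 ratio to HFD sham 2.55, 1.64 to 3.60). Bst2, the tetherin that holds budding virus at the membrane, was at 5.00, 2.72 and 7.43 CPM (1.45, 1.06 to 1.85), and Ifit3b at 0.538, 0.474 and 1.05 CPM (1.14, 0.18 to 2.21). Parp14 was at 85.2, 74.4 and 41.7 CPM (-0.83, -0.93 to -0.74), Ifih1 at 57.9, 47.9 and 32.8 CPM (-0.54, -0.66 to -0.43), and Stat2 and Trim30a each had a log2 ratio of -0.53. Ifi44 had 14, 11 and 97 UMIs and Ifit3b 10, 12 and 40 in the 3 villus-labelled libraries, so both reached the minimum mean of 20 only through HFD VSG, where they are high, and nothing is read from their place among the members. Without them 8 of 33 members were higher and 4 lower, and the median was 0.10. Bst2 was highest in HFD VSG, and Parp14, Ifih1 and Stat2 were lowest there. In these cells immune markers summed to 116 CPM in HFD VSG and 0.197 CPM in HFD sham, and the median cell held 32737.5 and 13718.5 UMIs. The median log2 ratio was 0.09 in cells with no UMI of an immune, B or plasma cell marker and -0.26 in cells thinned to 3000 UMIs. Thinning left fewer members above the minimum, so depth and the set of members changed together and the change of sign cannot be assigned to either.

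HFD VSG was also compared with LFD sham. In the crypt-labelled libraries 20 of the 35 were lower and 0 higher, against 6.01% of genes lower and 14.5% higher, with a median log2 ratio of -0.59 for the members and 0.13 for all genes. The lowest were Gbp7 (-2.52, -2.91 to -2.15), Igtp (-2.15, -2.42 to -1.88) and Irgm2 (-2.02, -2.36 to -1.68), and the highest Ifi44 (0.49, -0.09 to 1.10), Parp9 (0.18, 0.10 to 0.25) and Ifi35 (0.17, 0.11 to 0.24). Over the 3 crypt-labelled libraries LFD sham was highest with HFD VSG in between for 28 of 35 members, against 19.5% of all genes, and HFD VSG was highest for 5, against 54.8%. In the villus-labelled libraries 16 of the 35 were lower and 5 higher, against 19.7% of genes lower and 25.8% higher, with a median of -0.33 for the members and 0.04 for all genes. The lowest there were Igtp (-1.50, -1.93 to -1.09), Ddx60 (-1.48, -1.66 to -1.31) and Oas3 (-1.41, -1.91 to -0.93), and the highest, besides Ifi44 (1.75) and Ifit3b (0.96), which reached the minimum only through HFD VSG, was Irgm1 (0.95, 0.48 to 1.43). Without those 2 genes 16 of 33 members were lower and 3 higher, with a median of -0.47. In the villus-labelled libraries 10 of the 35 members had the order LFD sham, HFD VSG, HFD sham, a larger share than the 9.35% of all genes. HFD VSG was the lowest for 16, against 38.1%.

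Other epithelial classes gave fewer members enough UMIs. For HFD sham to LFD sham, goblet-like cells, the mucus-secreting cells, had 7 of 17 members lower and 1 higher in the crypt-labelled libraries, against 9.22% of genes lower and 9.3% higher, and 10 of 24 lower and 0 higher in the villus-labelled ones, against 5.61% and 4.66%. The medians of the members were -0.44 and -0.34. Cluster 1, whose cells carried no class name, had 14 of 28 members lower and 0 higher in the crypt-labelled libraries, against 5.95% and 7.95% of genes, and 14 of 30 lower and 1 higher in the villus-labelled ones, against 13.8% and 6.3%, with medians of -0.47 and -0.32. Cycling progenitor-like cells had 3 of 14 members higher and 0 lower in the crypt-labelled libraries, against 7.38% and 8.23% of genes, and 5 of 22 higher and 2 lower in the villus-labelled ones, against 9.02% and 10.6%, with medians of 0.01 and 0.04. Villus-labelled stem-like cells had 4 of 14 members lower and 0 higher, against 7.89% and 7.55% of genes, with a median of -0.20. Villus-labelled Paneth-like cells had 3 of 8 members higher and 0 lower, against 29.2% and 6.83% of genes, with a median of 0.37 beside 0.27 for all genes. Villus-labelled tuft-like cells had 1 of 7 members lower and 0 higher, against 12.5% and 12.2% of genes, with a median of -0.05 beside 0.02 for all genes. The crypt-labelled tuft-like cells, 13 of them in HFD sham, were too few to be compared. In crypt-labelled Paneth-like cells no member reached the minimum, and in stem-like cells 5 did.

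For HFD VSG to HFD sham, goblet-like cells had 4 of 17 members higher and 3 lower in the crypt-labelled libraries, against 15% of genes higher and 9.69% lower, and 7 of 24 higher and 5 lower in the villus-labelled ones, against 5.71% and 31.4%, with medians of 0.24 and 0.10 beside 0.08 and -0.25 for all genes. Cluster 1 had 12 of 28 members higher and 1 lower in the crypt-labelled libraries, against 6.96% and 3.42% of genes, with a median of 0.26. Its villus-labelled cells went the other way, with 1 of 30 members higher and 16 lower, against 25.4% and 26% of genes, and a median of -0.63 beside -0.01 for all genes. The villus-labelled enterocyte-like median for the same comparison was 0.13. Cycling progenitor-like cells had 1 of 14 members higher and 2 lower in the crypt-labelled libraries, against 7.48% and 4.79% of genes, and 2 of 22 higher and 13 lower in the villus-labelled ones, against 7.72% and 35%, with medians of -0.05 and -0.62 beside 0.04 and -0.27 for all genes. Villus-labelled stem-like cells had 2 of 14 higher and 4 lower, against 8.02% and 34.9%, and Paneth-like cells 0 of 8 higher and 5 lower, against 9.99% and 44%. Villus-labelled tuft-like cells had 0 of 7 higher and 1 lower, against 19.4% and 30.5%, with a median of 0.12 beside -0.14 for all genes. For HFD VSG to LFD sham the villus-labelled medians were -1.18 in cluster 1, -0.45 in cycling progenitor-like and -0.26 in goblet-like cells. The medians of all genes were -0.12, -0.32 and -0.28, so the goblet-like members lay near all genes.

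Iigp1, an immunity-related GTPase, was the rarest member and was found almost only in the LFD sham libraries. Over all epithelial cells it had 14 UMIs in the LFD sham crypt-labelled library and 69 in the villus-labelled one, 0 in both HFD sham libraries, and 0 and 1 in the HFD VSG ones. Of the 69, 35 UMIs came from 2 stem-like cells and 19 from 1 cycling progenitor-like cell. A count of 0 allows a level of up to 0.101 CPM in the HFD sham crypt-labelled and 0.0679 CPM in the HFD sham villus-labelled epithelium. Its description therefore rests on a few cells.

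The other genes of the pathway were taken from lists of 121 genes, of which 116 were found. None of the 21 interferon genes reached the minimum in enterocyte-like cells: Ifng had 0, 3 and 0 UMIs in the LFD sham, HFD sham and HFD VSG crypt-labelled libraries and 0, 0 and 2 in the villus-labelled ones, Ifnk, a keratinocyte interferon, had 3, 0 and 2 and 0, 0 and 2, and the other 19 had none. In immune-like cells Ifng had 13, 2 and 7 UMIs in the crypt-labelled libraries and 98, 0 and 37 in the villus-labelled ones, where HFD sham had only 9 such cells. In enterocyte-like cells and in crypt-labelled immune-like cells, these ligand counts were thus too low to compare between groups. In villus-labelled immune-like cells, Ifng made up 98 of 1914312 UMIs in LFD sham and 37 of 3308652 in HFD VSG, a lower share. This difference was not tested, and the 9 cells of HFD sham allow no comparison with that group.

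None of the 6 receptor genes passed 0.5 between HFD sham and LFD sham in the crypt-labelled libraries, and their median log2 ratio was -0.14; with 9.83% of all genes lower and 6.75% higher, a count of 0 of 6 is near the share of all genes. Ifnar1, a chain of the type I receptor, was at 46.3 CPM in LFD sham, 35.5 in HFD sham and 35.4 in HFD VSG, and Ifnlr1, the specific chain of the lambda receptor, at 9.90, 9.65 and 10.5. Il10rb, the other lambda receptor chain, was at 125, 106 and 104 CPM. Ifngr1 was at 111, 97.1 and 96.7 CPM and Ifngr2 at 235, 222 and 330 CPM, the only receptor gene of the 6 beyond 0.5 in size between HFD VSG and HFD sham (0.57), beside 10.5% of all genes higher. In the villus-labelled libraries Ifnar1 was at 42.96, 37.78 and 19.97 CPM and Ifnar2 at 34.4, 35.0 and 24.2 CPM, with log2 ratios of -0.92 and -0.53 between HFD VSG and HFD sham, 2 of 6 receptors lower beside 15.3% of all genes.

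**Figure D4:**
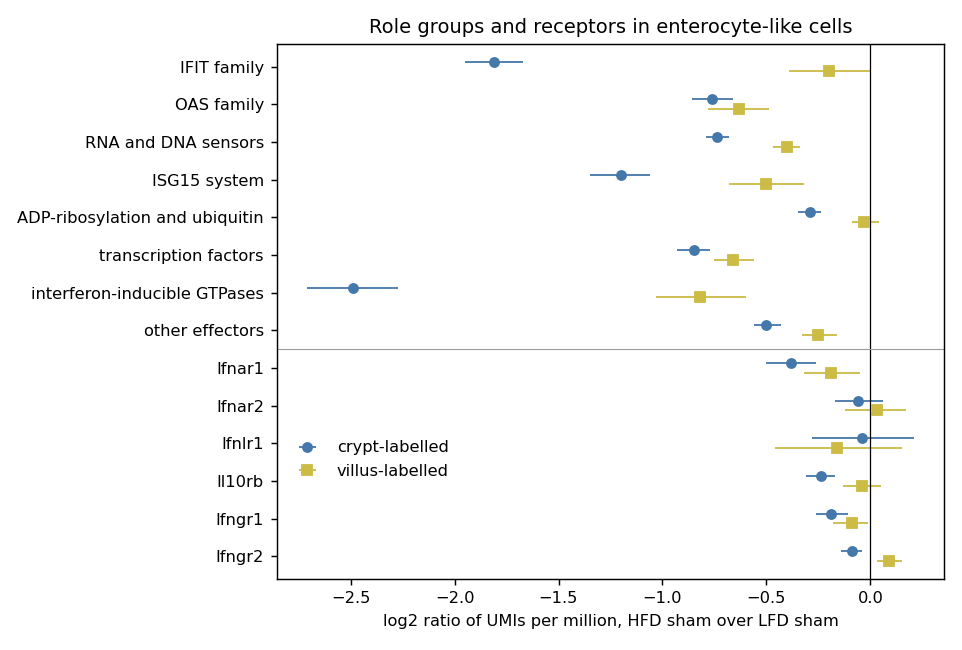
Log2 ratio of HFD sham to LFD sham in enterocyte-like cells for the summed UMIs of each role group of the 40 genes and for the receptor genes, in crypt-labelled and villus-labelled libraries; bars are 95% counting intervals. The GTPase and IFIT sums reach -2.49 and -1.81 in the crypt-labelled libraries, and the 6 receptors lie between -0.38 and -0.04.

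Of the 19 signal transduction and feedback genes used, 3 were lower in HFD sham than in LFD sham crypt-labelled enterocyte-like cells and 0 higher, beside 9.83% of all genes lower and 6.75% higher. Of 32 further interferon-stimulated genes used, 15 were lower and 0 higher, with a median log2 ratio of -0.46. In HFD VSG against HFD sham 9 of these were higher and 2 lower, beside 10.5% of all genes higher and 2.93% lower, with a median of 0.34. Of the 31 used in the villus-labelled libraries, 13 were lower and 0 higher in HFD sham against LFD sham (median -0.25), 7 higher and 6 lower in HFD VSG against HFD sham (median -0.04), and 3 higher and 16 lower in HFD VSG against LFD sham (median -0.64). None of the 15 MHC class I and immunoproteasome genes used passed 0.5 in any of the 3 crypt-labelled comparisons, and their medians were -0.15, 0.15 and -0.08. For the villus-labelled libraries 0 were higher and 1 lower in HFD sham against LFD sham, 1 higher and 2 lower in HFD VSG against HFD sham, and 3 higher and 4 lower in HFD VSG against LFD sham, with medians of -0.11, -0.09 and -0.32, beside the shares of all genes given above for each comparison.

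The spread over single cells was examined after each enterocyte-like cell was thinned to 3000 UMIs, which left 1172 to 2844 cells per library. In the crypt-labelled libraries a cell held on average 3.44 UMIs of the 40 genes in LFD sham, 2.12 in HFD sham and 2.71 in HFD VSG, with medians of 3, 2 and 2. The averages in the villus-labelled libraries were 2.36, 1.85 and 1.58, with medians of 2, 1 and 1. The variance was larger than the mean in all 6 libraries, by a factor (Fano factor) of 5.07 in LFD sham, 3.38 in HFD sham and 4.001 in HFD VSG crypt-labelled cells and of 2.53 to 3.32 in the villus-labelled ones. A few cells held up to 60 UMIs of the members among their 3000.

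The 5% of cells with most member UMIs held 25.1%, 21.9% and 23.1% of them in the LFD sham, HFD sham and HFD VSG crypt-labelled libraries and 20.2% to 24.0% in the villus-labelled ones. This share also depends on the mean count per cell, so it is not compared with gene lists of other levels. The top 5% averaged 17.3 UMIs in LFD sham, 9.21 in HFD sham and 12.4 in HFD VSG crypt-labelled cells, and the other 95% averaged 2.71, 1.74 and 2.20. Both fractions were split by the same UMIs that were averaged, so their shared order largely follows from the means. It cannot tell fewer cells of high level from less RNA per cell.

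**Figure D5:**
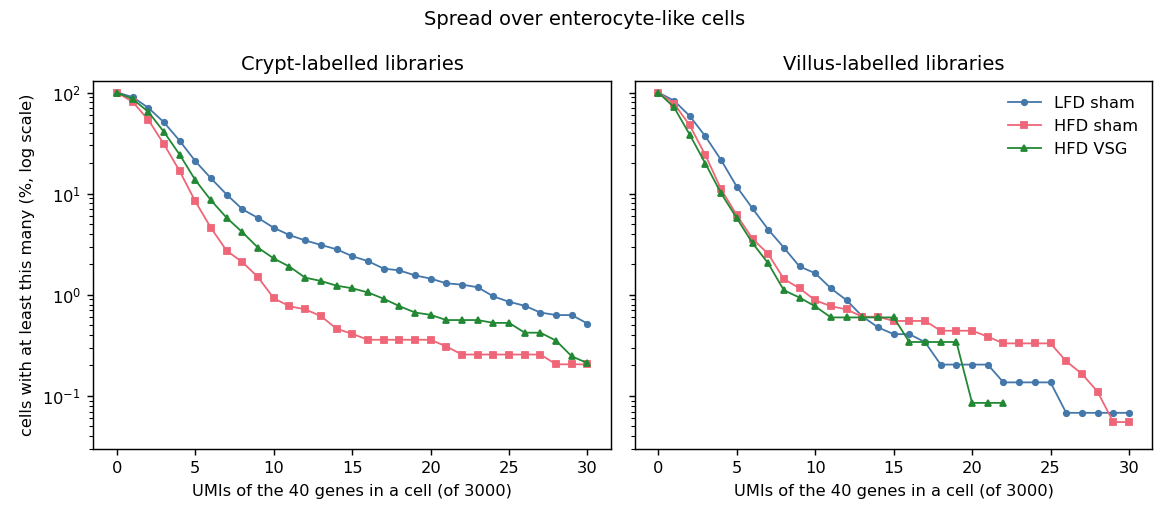
Percentage of enterocyte-like cells (log axis) holding at least a given number of UMIs of the 40 genes, after thinning each cell to 3000 UMIs, for the crypt-labelled and villus-labelled libraries; each line is 1 library. In the crypt-labelled panel LFD sham lies above HFD VSG and HFD VSG above HFD sham over most of the range, which is drawn up to 30 UMIs.

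At least 5 different members were detected in 14.5% of LFD sham, 5.29% of HFD sham and 9.46% of HFD VSG crypt-labelled enterocyte-like cells and in 7.28%, 3.69% and 3.50% of villus-labelled ones, at equal depth. Paneth-like cells at that depth had 0 such cells in all 6 libraries. At least 10 different members were detected in 72 of 2697 LFD sham, 9 of 1948 HFD sham and 38 of 2844 HFD VSG crypt-labelled enterocyte-like cells (2.67%, 0.462% and 1.34%), and in 5 to 9 cells of each villus-labelled library (0.408% to 0.496%). Of the 162 cells with so many members in all classes, 139 were enterocyte-like, 8 goblet-like and 3 immune-like. The 72 cells of the LFD sham crypt-labelled library ranged from 0.352% of the cells of cluster 8 to 3.54% of those of cluster 0 among the enterocyte-like clusters, which were built without the 40 genes.

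Single members differed in how unevenly they were held. Over the members with enough thinned UMIs, the median Fano factor per gene was 1.09 to 1.20 by library, against 1.02 to 1.04 over all genes. Ifit1 had 4.68 in LFD sham, 5.45 in HFD sham and 2.96 in HFD VSG crypt-labelled cells, with up to 19 of 3000 UMIs in 1 cell, above 99.25% to 99.66% of genes. Isg15 had 2.39, 3.98 and 3.17, and Ifit1bl1 3.19, 3.43 and 3.67. Parp14 had 1.36, 1.11 and 1.36. Gbp7 had 2.25 in the LFD sham crypt-labelled library, the only one with enough UMIs for a value.

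Within a library the members went together weakly over cells. The median Pearson correlation over pairs of members was 0.072, 0.045 and 0.063 in the crypt-labelled libraries and 0.033 to 0.045 in the villus-labelled ones, against -0.0018 to 0.0011 over pairs of all genes. These correlations describe 1172 to 2844 cells of 1 library at equal depth, and are limited by the few UMIs per cell. The highest in the LFD sham crypt-labelled cells were Ifit1 with Rsad2 (0.58) and Igtp with Gbp7 (0.51). The 10 pairs of GTPases in that library had a median of 0.19. Cells with at least 3 GTPase UMIs numbered 25 in LFD sham, 0 in HFD sham and 5 in HFD VSG crypt-labelled cells, and those with at least 3 IFIT UMIs 59, 12 and 41; 12, 0 and 4 cells had both.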

How the data were processed

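Per the labels and methods, Cell Ranger 6.0.0 mapped 10x Genomics 3′ reads to mm10, and the authors deposited raw UMI counts (unit: counts per gene and barcode) for all barcodes and for barcodes called as cells. The called barcodes had equal counts in both. Barcodes with at least 750 genes and at most 20% mitochondrial UMIs were kept and the highest-scoring 0.8% per 1000 barcodes were removed as doublets (scanpy 1.11.5). Libraries were integrated with Seurat 5.3.0 on 2000 genes, leaving out 161 listed and pathway genes, and clustered at resolution 0.4. Clusters were named from fixed markers with thresholds set after seeing the data.

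UMIs were summed by class and library, expressed as CPM, and a sum of fewer than 3 UMIs entered ratios as 3. Intervals are exact Poisson limits for levels and exact conditional binomial limits for ratios, at 95%. Named were the 3 highest and 3 lowest members of each comparison, the 2 most abundant of each role, ligands and receptors, and 10 correlated genes. Igtp, Irgm2, Rsad2, Usp18, Ddx60, Isg15, Ifit1, Oasl2, Ifi44 and Iigp1 were also described where the text turned on them, some chosen after their values were seen. The members and gene lists were chosen with earlier results of these data known. The scripts were tested on simulated data. Gene positions were from GENCODE vM21 and promoters from RefSeq (GRCm38.p6). One pathway gene is not reported here. No p-value was made, since each group had 1 library per compartment. Alternatives covered filters, doublets, scaling, thinning, free RNA, clustering and minimum counts. Python 3.11.15, numpy 2.4.6, scipy 1.17.1, pandas 2.3.3, R 4.3.3 and matplotlib 3.10.9 were used.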

Additional observations from a re-analysis of the deposited data

Results flagged for a closer look

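Several members lay on opposite sides of 0 in the crypt-labelled and villus-labelled enterocyte-like cells, with counting intervals that left out 0 in both. The share of all genes that meet this rule was not computed. The counts of members below are therefore not read as a result about the members. The difference between the compartments was not tested, since each value comes from 1 library per group, and crypt-labelled and villus-labelled libraries of a group come from the same mice.

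For HFD VSG to HFD sham, the sum of the 40 genes had a log2 ratio of 0.43 in the crypt-labelled and -0.12 in the villus-labelled libraries. Of villus-labelled enterocyte-like cells, 20.1% in HFD sham and 52.8% in HFD VSG had at most 10% mitochondrial UMIs. The 40 genes summed there to 515.8 and 489.4 CPM, and in the remaining cells to 588.2 and 575.8 CPM. The crypt-labelled sums were 641.0 and 670.4 CPM in such cells and 652.7 and 895.3 CPM in the rest. The part of these shares of cells in the opposite signs was not tested. Of the 5 sensors, 3 had opposite signs: Ifih1 had 0.40 and -0.54, Ddx58, the sensor RIG-I, 0.52 and -0.23, and Eif2ak2 0.29 and -0.14, while Ddx60 (1.02 and 0.10) and Zbp1 (0.68 and 0.41) did not. Parp14 had 0.28 and -0.83, Parp9 0.33 and -0.20 and Dtx3l 0.28 and -0.34. Of the transcription factors, Irf9 had 0.25 and -0.35 and Stat2 0.47 and -0.53. These 8 genes are among the more abundant members. Small ratios have intervals that leave out 0 only with many UMIs, so this follows largely from the rule.

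For HFD VSG to LFD sham, Ddx58 had a log2 ratio of 0.12 in the crypt-labelled and -0.30 in the villus-labelled libraries, whereas Irgm1 (-1.53 and 0.95), Ifi47 (-0.37 and 0.61) and Bst2 (-0.71 and 0.57) went the other way. For HFD sham to LFD sham, Parp9 had -0.15 and 0.14. In the same enterocyte-like cells immune markers summed to 3.21 to 5.63 CPM in the crypt-labelled libraries, and in the villus-labelled ones to 104 CPM in LFD sham, 0.197 in HFD sham and 116 in HFD VSG. In cells with no UMI of an immune, B or plasma cell marker the median log2 ratio of the members for HFD VSG to HFD sham was 0.64 in the crypt-labelled and 0.09 in the villus-labelled libraries, and single genes were not recomputed there.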

How the results depend on the processing

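Across 12 alternatives per comparison, no median of the members changed sign except in the villus-labelled HFD VSG to HFD sham comparison. With at most 10% mitochondrial UMIs per cell, the crypt-labelled median was -0.59 for HFD sham to LFD sham (11 of 22 members and 7.36% of all genes lower) and 0.10 for HFD VSG to HFD sham (4 members and 15.04% of genes higher, 3 members and 3.65% of genes lower), and 8.51% to 16.5% of cells were left. The villus-labelled HFD VSG to HFD sham median was -0.26 with cells thinned to 3000 UMIs (2 of 23 members and 23.2% of genes higher, 6 members and 17.45% of genes lower), and 0.13 as reported. Over all alternatives the medians ran from -1.50 to -0.59, from 0.10 to 0.73 and from -0.73 to -0.57 in the crypt-labelled libraries for HFD sham to LFD sham, HFD VSG to HFD sham and HFD VSG to LFD sham, and from -0.68 to -0.27, from -0.26 to 0.19 and from -0.53 to -0.26 in the villus-labelled ones. The cause of the shifts was not tested. Totals without mitochondrial and damaged-droplet genes, cells with no UMI of an immune or B and plasma marker, and a minimum mean of 20 UMIs over the 2 libraries other than the highest, were chosen as alternatives after seeing the data and kept every median within the order-statistic range of the median over members. With a size of 1 in place of 0.5, 23 members were lower in HFD sham than in LFD sham (2.47% of all genes) and 10 higher in HFD VSG than in HFD sham (2.33%) in the crypt-labelled libraries. The share of member UMIs in the top 5% of cells was 21.9% to 28.4% with cells thinned to 1500 UMIs. Crypt-labelled and villus-labelled libraries can be paired by pool of mice, but no test between the compartments was run. For the group comparisons no paired analysis was possible because each group had 1 library per compartment, and no result came from a test. Leaving out a replicate was not possible for the same reason.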

Other observations

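The 10 genes outside the interferon lists that went most with the summed members over thinned enterocyte-like cells are given by name. The highest Pearson correlations, averaged with equal weight over the 6 libraries, were those of Selenop (0.176), which encodes the plasma selenium carrier, and Mxd1 (0.169), a repressor that opposes Myc. Apob (0.166), Apoa4 (0.155) and Apoa1 (0.152) encode apolipoproteins of chylomicrons, Xdh (0.157) xanthine dehydrogenase, Muc13 (0.147) a membrane mucin and Krt20 (0.135) a keratin of differentiated epithelium, and mt-Co1 (0.138) and Malat1 (0.128) completed the 10. The median over 7428 genes was 0.002. Of the listed pathway genes, Rnf213, a large ubiquitin ligase, had 0.381, Slfn2 0.203 and Ifi27l2b 0.193, all higher than the first gene outside the lists. These are correlations over cells of shared libraries at equal depth, in sparse counts, and are given as a description.

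Levels in droplets with fewer than 100 UMIs, which hold mostly free RNA, were near those of enterocyte-like cells for some members. Ifi35 stood at 87.1 CPM there and 84.1 CPM in enterocyte-like cells of the LFD sham crypt-labelled library, and Igtp at 12.5 and 13.8 CPM. In the HFD sham crypt-labelled library Igtp stood at 1.09 CPM in both. With free RNA subtracted, the crypt-labelled median of the members was -1.26 or -1.50 for HFD sham to LFD sham and 0.50 or 0.54 for HFD VSG to HFD sham, by the fractions the study states or those from immune-like cells.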
